A study of Mus musculus with 50 samples.

Results

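The genes described here are the mouse genes whose symbols start with Srsf, Hnrnp, Snrp, Sf3a or Sf3b: the SR proteins, the heterogeneous nuclear ribonucleoproteins, the proteins of the small nuclear ribonucleoproteins, and the SF3a and SF3b complexes. Of the 53700 genes counted, 58 had symbols with these beginnings. Dropping 5 whose symbols contain -ps left 53 members, of which 11 are Srsf, 20 Hnrnp, 13 Snrp and 9 Sf3 genes.

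Splicing removes introns from newly made transcripts, and the spliceosome that does this is built anew on each intron from small nuclear RNAs and proteins. The Snrp proteins include the Sm ring that surrounds most of these RNAs, and the SF3a and SF3b complexes hold the U2 particle at the branch site. SR proteins mostly favour the use of the exons they bind, hnRNP proteins often oppose it, and in macrophages the choice of exons and the retention of introns are known to shift when bacterial products are sensed.

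The study exposed litters to early-life stress (ELS) by limiting bedding and nesting material from postnatal day 2 to 9, and asked how hippocampal microglia differed at once, in adulthood and after an immune challenge. All 50 mice were male C57BL/6J, and each library holds CD45int CD11b+ cells sorted from the hippocampus of 1 mouse. At P9, 12 pups came from undisturbed control nests (P9-CTR) and 13 from ELS nests (P9-ELS), with no injection. If the whole number in their titles marks the nest, they came from 5 and 4 nests, and mice of the same nest were tested as separate mice. At P200, 7 control adults received PBS (P200-CTR-PBS) and 7 received lipopolysaccharide (LPS) from bacterial walls at 1 mg/kg into the peritoneum (P200-CTR-LPS), while 6 ELS adults received PBS (P200-ELS-PBS) and 5 received LPS (P200-ELS-LPS), with tissue taken 3 h later. By the same reading of the titles each adult group came from 5 nests, and PBS and LPS adults of a condition came from the same nests. Adults of the same nest were also tested as separate mice. Adult tissue went through a Percoll step to remove myelin and P9 tissue did not, and the ages were separate cohorts, so age cannot be told apart from isolation or cohort.

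Mice are called by their sample titles. Library totals ranged from 5152838 counts in mouse P9_19.3_ELS to 42231258 counts in mouse P200_1.3_CTR_LPS. The summed level of 15 microglia markers was 67546 ± 8253 CPM (counts scaled to library size; mean ± SD) in P9-CTR and 101647 ± 2974 in P200-CTR-PBS. Il1b, a cytokine gene induced by LPS, ranged from 0 to 4.61 CPM over the 13 PBS adults and from 66.4 to 1081 CPM over the 12 LPS adults, so the libraries matched their treatment labels. Some libraries stood apart. The fewest genes with a count were found in mouse P9_19.3_ELS (12482), mouse P200_1.1_CTR_PBS (12854) and mouse P9_19.2_ELS (15731), against medians of 19266 in P9-ELS and 18195 in P200-CTR-PBS. The members took the largest shares of all counts in mice P9_58.1_CTR (0.913%) and P9_58.2_CTR (0.974%) and in mouse P9_19.2_ELS (0.899%), against medians of 0.699% in P9-CTR and 0.674% in P9-ELS. The first 2 of these mice also had the lowest microglia marker sums of P9-CTR, 53267 and 48536 CPM, against 66370 to 74568 in the other 10. Among LPS adults, mouse P200_5.3_CTR_LPS had the lowest Il1b of its group. Mouse P200_11.2_ELS_LPS had the highest microglia marker sum of its group (119951 CPM, group median 97906) and the smallest member share of all adults (0.430%). Its lymphocyte marker sum was 116 CPM (group median 30.5), in a list where Cd79b made up 47.7 of the group mean of 47.9 CPM.

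All 53 members passed the filter of at least 1 CPM in more than 2 mice, and their levels are compared with each other as CPM per kb of exon length in the canonical transcript. On that scale, averaged over the 50 mice, Hnrnpk led with 228 CPM per kb, followed by Snrpb with 167, Hnrnpa2b1 with 161, Srsf5 with 108 and Srsf7 with 102. Hnrnpk binds cytosine-rich RNA, Snrpb makes the Sm ring proteins B and B', and Hnrnpa2b1 sorts transcripts for transport as well as splicing. Sf3b1, the largest SF3b protein and the part that contacts the branch site, led its family with 62.6 CPM per kb. At the low end were Srsf12 with 0.184, Hnrnpul2 with 1.12, Hnrnpd with 1.87 and Snrpn with 2.42 CPM per kb. The members together took a median of 0.465% of counts in P200-CTR-PBS and 0.458% in P200-ELS-PBS, and 0.540% and 0.501% in the LPS adults. Fewer cells of a type and less RNA per cell cannot be told apart in these bulk libraries. Except where a nest setting is named, the p-values given below measure the spread between mice and not between nests, at both ages.

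**Figure D1:**
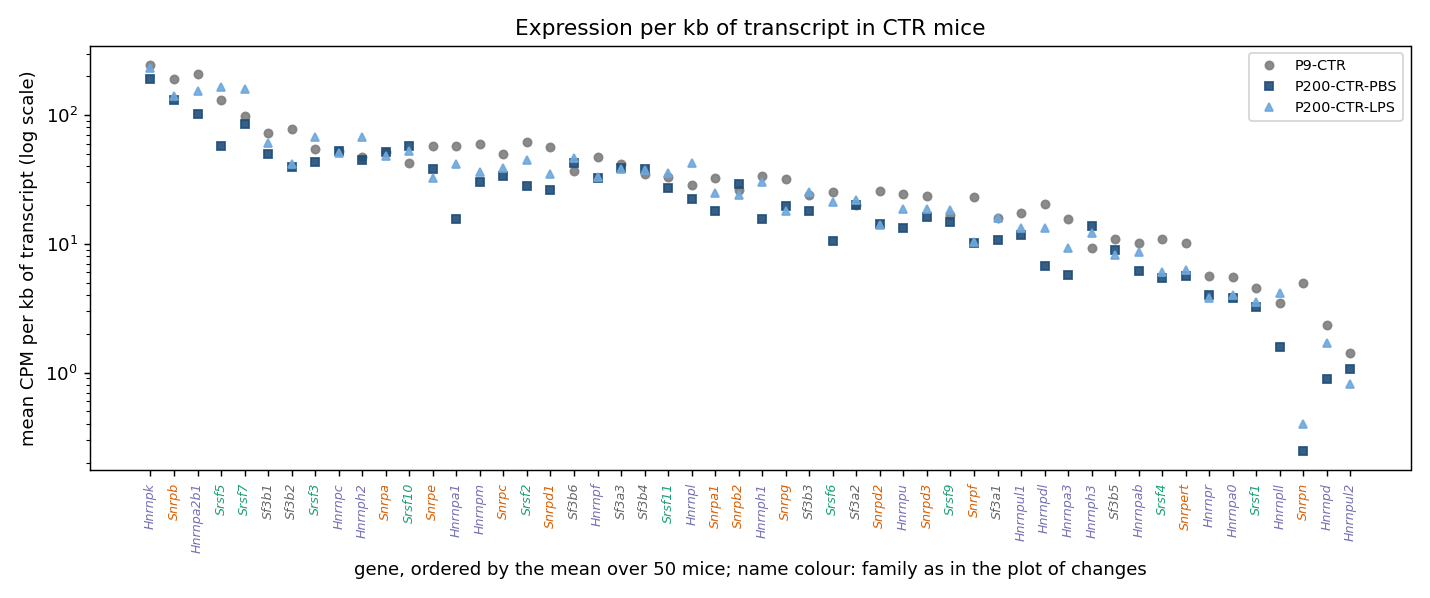
Mean CPM per kb of canonical transcript (log axis) of 52 members in P9-CTR (12 mice), P200-CTR-PBS (7) and P200-CTR-LPS (7), ordered by the mean over 50 mice, with gene names coloured by family and Srsf12 left out because it had no count in P200-CTR-PBS. Hnrnpk stands highest at 228 CPM per kb over all mice, and Snrpn drops from 4.97 at P9 to 0.246 in PBS adults.

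Exon sharing limits some of these levels. The strand setting of the read counting is not stated, so reads from genes that overlap on the opposite strand cannot be told apart for Snrpf (82.0% of exon length shared), Srsf9 (71.7%), Sf3a2 (30.5%), Hnrnpu (24.4%), Hnrnpa2b1 (21.7%) and Snrpa (19%). Reads that fit near-identical processed copies elsewhere in the genome are uncertain too, which touches Hnrnpa1 and Snrpert, a member that is itself annotated as a processed pseudogene.

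The comparison of PBS adults with P9 pups asked how microglia differ between the end of the stress period and adulthood, and most members were lower in adults. A gene is called higher or lower at an adjusted p under 0.05 (edgeR, Benjamini-Hochberg over all genes tested). In control mice 36 of 53 members were lower, where 26.6% of all 16696 genes tested were, and 2 were higher, where 17.4% of all genes were. In ELS mice 33 members were lower against 25.0% of all genes, and 1 was higher against 17.15%. The median log2 fold change of the members was −0.56 in control and −0.66 in ELS mice, beside −0.09 and −0.01 over all genes tested. Over 2-fold lower were 15 members in control mice, against 18.5% of all genes, and 15 in ELS mice, against 17.5%. The same 29 members were called in both conditions, and all 29 had the same direction in both.

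The fall was deepest in the Snrp and Hnrnp families. In control mice 11 of 13 Snrp genes, 16 of 20 Hnrnp genes, 6 of 11 Srsf genes and 3 of 9 Sf3 genes fell with age, with median log2 fold changes of −0.70, −0.64, −0.50 and −0.28. In ELS mice the counts were 11, 15, 3 and 4, with medians of −1.13, −0.74, −0.29 and −0.36. The Srsf median in ELS mice was −0.13 without the 3 libraries with the fewest genes, and that in control mice −0.31 without mice P9_58.1_CTR and P9_58.2_CTR. Without the 3 libraries with the fewest genes the Snrp medians were −0.9 in control and −0.93 in ELS mice. The 12 proliferation markers, led at P9 by Top2a, moved the same way: all 12 fell in both conditions, and their sum went from 1482 ± 186 CPM in P9-CTR to 78.7 ± 11.3 in P200-CTR-PBS. Of the 7 markers of border-associated macrophages, 7 fell in control and 5 in ELS mice, with a sum of 733 ± 127 CPM in P9-CTR and 7.28 ± 2.94 in P200-CTR-PBS, of which Mrc1 made up 711 and 5.76, and 7 and 6 of the 8 astrocyte markers tested fell, although the astrocyte sum was 300 CPM in P9-CTR and 365 in P200-CTR-PBS, and 237 and 392 in the ELS groups. Slc1a3 carried that sum, with 120 and 356 CPM in the control groups and 103 and 387 in the ELS groups. The median mitochondrial share of counts was 1.24% and 1.38% in P9-CTR and P9-ELS, and 0.721% and 0.624% in the PBS adults. The part of these cells, or of library quality, in the members' fall was not tested.

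**Figure D2:**
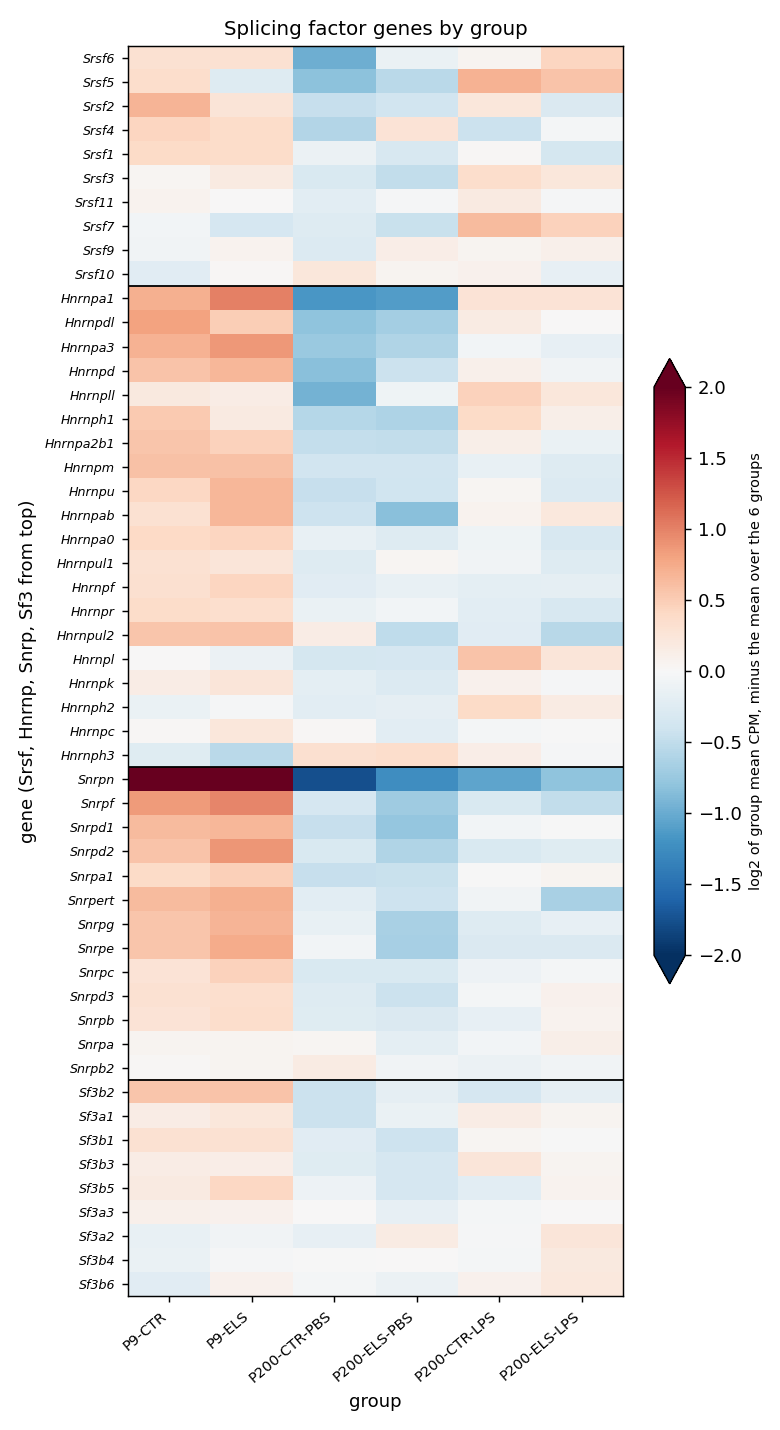
Each row is a member (52, without Srsf12) and each column a group; the colour is the log2 of the group's mean CPM minus the mean of the 6 log2 values of that gene, cut off at 2 in either direction. Rows are ordered within each family by the age change in control mice. Most Snrp and Hnrnp rows are red at P9 and blue in PBS adults, and the Srsf5, Srsf7 and Hnrnpa1 rows are higher in LPS than in PBS adults.

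Hnrnpa1, which represses exons and shuttles between nucleus and cytoplasm, had the largest fall among the well expressed members (mean log2 CPM of at least 4) in both conditions. Its gene identifier is ENSMUSG00000046434. In P9-CTR it ranged from 88.7 to 143 CPM (median 97.5), and in P200-CTR-PBS from 24.5 to 36.2 (median 25.6). P9-ELS mice ranged from 94.9 to 203 CPM (median 124) and P200-ELS-PBS mice from 24.2 to 37.3 (median 27.9). Every pup was above every PBS adult in both conditions. The log2 fold change was −1.87 ± 0.16 (standard error) in control mice (adjusted p = 7.95e-14) and −2.12 ± 0.17 in ELS mice (adjusted p = 1.32e-14).

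Hnrnpdl, a relative of the AU-rich element binder Hnrnpd, ranged from 47.4 to 137 CPM (median 63.8) in P9-CTR and from 13.7 to 27.9 (median 24.0) in P200-CTR-PBS. The control ranges did not overlap, and the log2 fold change was −1.61 ± 0.22 in control mice and −1.16 ± 0.23 in ELS mice, where P9-ELS (34.8 to 86.6 CPM) and P200-ELS-PBS (19.9 to 37.1) overlapped. Hnrnpa3, of the same A/B group as Hnrnpa1, ranged from 70.4 to 92.9 CPM (median 82.3) in P9-CTR and from 17.7 to 38.6 (median 29.9) in P200-CTR-PBS, a log2 fold change of −1.44 ± 0.16. In ELS mice it went from a median of 91.1 CPM (59.7 to 139) to 35.2 (19.9 to 40.0), a log2 fold change of −1.47 ± 0.17. Pups and PBS adults did not overlap for Hnrnpa3 in either condition. Hnrnpab had a median of 22.9 CPM (15 to 69.0) in P9-ELS and 9.55 (8.72 to 10.7) in P200-ELS-PBS, a log2 fold change of −1.50 ± 0.23 (adjusted p = 6.97e-07). Without the 3 libraries with the fewest genes, a choice made after seeing the data, the value was −1.21 ± 0.18. In control mice Hnrnpab fell by 0.72 on the log2 scale, from a median of 21.4 CPM (13.9 to 31.1) to 12.9 (9.43 to 15.8), and these ranges overlapped.

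The most abundant member, Hnrnpk, fell less, from 1225 ± 112 CPM in P9-CTR to 963 ± 66.8 in P200-CTR-PBS (log2 fold change −0.35 ± 0.11) and from 1296 ± 299 to 915 ± 79.5 in ELS mice (−0.50 ± 0.11). Hnrnpa2b1 (−1.03 in control, −0.95 in ELS mice), Hnrnpm (−0.96 and −0.97), Hnrnpd (−1.40 and −1.10), Hnrnph1 (−1.11 and −0.80) and Hnrnpu (−0.88 and −1.06) fell in both conditions by about 2-fold, as did Hnrnpf (−0.54 and −0.59), Hnrnpr (−0.51 and −0.40) and Hnrnpa0 (−0.55 and −0.69) by less. The Hnrnpa0 call in control mice was lost in 6 of 19 fits that each left out a mouse, without a filter, and with counts summed per nest. Counts summed per nest also lost the calls for Hnrnpd and Hnrnph1 in ELS mice. Hnrnph1 and Hnrnpf bind runs of guanines, and Hnrnpu attaches to chromatin and RNA. Hnrnpl, which binds CA-rich RNA, Hnrnpll, its paralog known for exon choice in the Ptprc transcript of lymphocytes, and Hnrnpul1 passed the test in control mice alone (−0.37, −1.14 and −0.55), and Hnrnpc, a binder of uridine tracts, and Hnrnpul2 in ELS mice alone (−0.44 and −1.08). The Hnrnpl call was lost in 14 of 19 fits that each left out a mouse and in 5 of 9 other settings. Those for Hnrnpll and Hnrnpul2 were lost with counts summed per nest. None of the 5 Hnrnp genes called in 1 condition differed between conditions by the interaction test after adjustment. Hnrnph2 was not called with age in either condition.

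Hnrnph3, the shortest protein of the H/F group, was the only Hnrnp gene that rose with age, and it rose in both conditions. It had a median of 20.4 CPM (8.11 to 40.1) in P9-CTR and 32.4 (24.8 to 37.9) in P200-CTR-PBS, and a median of 16.5 (9.86 to 26.2) in P9-ELS and 33.5 (23.1 to 38.6) in P200-ELS-PBS. The groups overlapped, and the log2 fold changes were 0.57 ± 0.20 (adjusted p = 0.0159) and 0.88 ± 0.20 (adjusted p = 0.000371).

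Every Sm ring gene that was called fell. Snrpf had a median of 31.4 CPM (23.5 to 37.2) in P9-CTR and 13.1 (11.0 to 17.8) in P200-CTR-PBS, and a median of 32.6 (24.0 to 62.4) in P9-ELS and 10.7 (7.55 to 12.1) in P200-ELS-PBS. Pups and PBS adults did not overlap in either condition, and the log2 fold changes were −1.19 ± 0.16 (adjusted p = 1.88e-08) and −1.69 ± 0.17 (adjusted p = 1.27e-11). Most of the Snrpf exon length is shared with genes on the other strand, as stated above. Snrpb had a median of 218 CPM (191 to 254) in P9-CTR and 148 (137 to 165) in P200-CTR-PBS (−0.53 ± 0.09), with a fall of 0.64 on the log2 scale in ELS mice. The others of the ring had log2 fold changes of −1.10 and −1.44 (Snrpd1, control and ELS mice), −0.87 and −1.48 (Snrpd2), −0.56 and −0.77 (Snrpd3), −0.61 and −1.41 (Snrpe) and −0.70 and −1.33 (Snrpg). All 7 ring genes were called lower in adults of both conditions, and with counts summed per nest the control calls for Snrpe and Snrpg were lost.

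Among the Snrp genes of single particles, the U1 gene Snrpc (−0.57 and −0.76) and the U2 gene Snrpa1 (−0.83 and −0.91) fell in both conditions, while the U1 gene Snrpa (−0.02 and −0.24) and the U2 gene Snrpb2 (0.15 and −0.14) were called in neither. The pseudogene Snrpert fell as well (−0.83 and −1.13), at 2.82 ± 0.856 CPM in P9-CTR and 1.58 ± 0.662 in P200-CTR-PBS. Its call in control mice was lost without a filter and with counts summed per nest.

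Snrpn, which makes an Sm protein that takes the place of the B protein in neurons, was singled out after its values were seen. It ranged from 9.02 to 29.2 CPM (median 19.16) in P9-CTR and from 6.45 to 22.2 (median 16.0) in P9-ELS, against 0 to 2.198 (median 0.888) in P200-CTR-PBS and 0.671 to 1.97 (median 1.37) in P200-ELS-PBS. Every pup was above every PBS adult, and the log2 fold changes of −4.36 ± 0.41 (adjusted p = 1.73e-12) and −3.51 ± 0.42 (adjusted p = 1.14e-09) were the most negative of the members with counts in every group. Its host partner Snurf, which shares exons with it on the same strand, had no count in any mouse. How reads in shared exons were assigned is not stated, so a count of 0 does not show that Snurf was silent. The 14 neuron markers moved the same way, with a sum of 250 ± 71.3 CPM in P9-CTR and a mean of 176 in P9-ELS, against 14.7 ± 8.32 and 13.3 ± 3.77 in PBS adults. All 14 fell in control mice and 12 fell in ELS mice, Camk2a was the most abundant, and Snap25 went from 17.33 ± 5.80 to 4.37 ± 2.98 CPM in control mice. The part of neuronal RNA in the Snrpn values was not tested.

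The Srsf family was less uniform. Srsf10, a splicing repressor when it loses its phosphate groups, rose in control mice, from a median of 131 CPM (98.3 to 154) in P9-CTR to 177 (163 to 199) in P200-CTR-PBS, with no overlap (0.46 ± 0.14, adjusted p = 0.00556). In ELS mice its medians were 162 CPM (77.8 to 310) and 149 (134 to 187), and the change was 0.02 ± 0.14 (adjusted p = 0.919). The interaction value for Srsf10 was −0.43 ± 0.20 (unadjusted p = 0.0345, adjusted p = 0.450), so a difference between conditions was not shown. Srsf3, the smallest SR protein, fell in both conditions (−0.34 and −0.66), although without mouse P200_1.1_CTR_PBS its call in control mice was lost.

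Srsf5, Srsf6, Srsf4 and Srsf2 passed the age test in control mice and not in ELS mice, but no interaction value of theirs passed after adjustment (adjusted p of at least 0.283), so a difference between conditions was not shown. Srsf6 had a median of 123 CPM (78.8 to 155) in P9-CTR and 51.32 (26.7 to 63.3) in P200-CTR-PBS, with no overlap (−1.28 ± 0.20, adjusted p = 9.74e-07). In ELS mice it had medians of 126 CPM (69.8 to 165) and 89.1 (58.3 to 119), ranges that overlapped (−0.44 ± 0.20, adjusted p = 0.0817). Srsf4 showed the same order, with medians of 24.6 CPM (15.0 to 42.2) and 12.7 (9.50 to 16.2) in control mice (−1.01 ± 0.23) and 24.0 (10.4 to 44.8) and 23.0 (14.4 to 33.5) in ELS mice (−0.08 ± 0.23). Srsf5 had a median of 187 CPM (106 to 665) in P9-CTR and 91.0 (76.4 to 168) in P200-CTR-PBS (−1.17 ± 0.27), and 141 (112 to 369) and 144 (84.1 to 182) in ELS mice (−0.29 ± 0.27). The mice P9_58.1_CTR and P9_58.2_CTR had 546 and 665 CPM of Srsf5, 413 and 529 CPM of Srsf7, and 243 and 437 CPM of Srsf2, each above all 10 other P9-CTR mice. The call for Srsf2 in control mice (−1.15 ± 0.36) was lost without them (−0.74, adjusted p = 0.0686). The Srsf5 call was kept, at −0.67 in place of −1.17.

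Srsf1, the first SR protein described, passed the test in ELS mice alone (−0.69, with −0.50 in control mice), and Srsf7, Srsf9 and Srsf11 passed in neither condition. In the Sf3 family, Sf3b1 went from 447 ± 82.4 CPM in P9-CTR to 312 ± 37.1 in P200-CTR-PBS (−0.52 ± 0.13) and from 448 ± 147 to 273 ± 21.7 in ELS mice (−0.72 ± 0.14), and Sf3b2 fell by 0.98 and 0.75 on the log2 scale. Sf3a1, which passed in control mice alone (−0.57), Sf3b3 and Sf3b5, which passed in ELS mice alone (−0.46 and −0.75), and Sf3a2, Sf3a3, Sf3b4 and Sf3b6, which passed in neither, lay between −0.57 and 0.19 in control mice. The Sf3b3 call was lost in 14 of 19 fits that each left out a mouse. With counts summed per nest it was lost too, as was the Srsf1 call in ELS mice. None of the Srsf and Sf3 genes that passed in 1 condition differed between conditions by the interaction test after adjustment.

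The comparison of LPS with PBS adults asked how microglia respond to the challenge 3 h after it, and every member that was called rose. In control mice 14 of 53 members rose, where 8.73% of all genes did, and 0 fell, where 6.20% of all genes did. In ELS mice 9 members rose, against 7.40% of all genes, and 0 fell, against 4.94%. At an unadjusted p under 0.05, 1 member was lower in control mice and 0 in ELS mice, where 2020 and 1958 of all genes were. The likelihood-ratio test of edgeR and DESeq2 called 0 members lower in both, and of all genes 1270 and 1046 lower (likelihood-ratio test) and 1228 and 1030 lower (DESeq2). Over 2-fold higher were 5 members in control mice, against 6.02% of all genes, and 3 in ELS mice, against 4.69%. The median log2 fold change of the members was 0.24 in control and 0.31 in ELS mice, beside 0.00 and −0.04 over all genes. The share of members over 2-fold in ELS mice was thus close to that of all genes, and the counts without a size limit were above it. Some cell-type markers moved with LPS as well: 2 of 15 microglia markers fell in each condition and 3 rose in ELS mice. Of 8 astrocyte markers 1 and 2 rose, with sums of 365 and 559.5 CPM in control and 392 and 525 in ELS mice after PBS and LPS. Slc1a3 carried these sums, with 356 and 550 CPM in control and 387 and 515 CPM in ELS mice. In control mice 2 of 8 endothelial and mural and 1 of 7 border-associated macrophage markers rose, and in ELS mice 1 of 4 monocyte and neutrophil markers. Their part in the members' rise was not tested.

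Leaving out the 3 libraries with the fewest genes, chosen after seeing the data, gave 20 members higher in control mice and 15 higher and 1 lower in ELS mice. Calls over all genes went from 1458 to 1806 higher in control mice, and from 1235 to 1922 higher and 824 to 1610 lower in ELS mice. Those libraries are in neither group of the ELS comparison, but all groups were fitted in 1 model that shares 1 estimate of the spread. Without them the median log2 fold changes after LPS in ELS mice stayed at 0.01 (Srsf), 0.28 (Hnrnp), 0.37 (Snrp) and 0.18 (Sf3). How those libraries moved the counts was not tested. The comparisons of age and of LPS in control mice share the P200-CTR-PBS mice, and those in ELS mice share the P200-ELS-PBS mice, so the opposite directions of age and LPS are not independent of each other.

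In both conditions 5 members rose after LPS: Hnrnpa1, Hnrnpl, Srsf3, Srsf5 and Srsf7. Hnrnpa1 ranged from 24.5 to 36.2 CPM (median 25.6) in P200-CTR-PBS and from 30.7 to 96.5 (median 85.2) in P200-CTR-LPS, and the 5 P200-ELS-LPS mice had 51.14, 65.7, 75.3, 83.3 and 104 CPM against 24.2 to 37.3 (median 27.9) in P200-ELS-PBS. All ELS mice given LPS and 6 of 7 control mice given LPS were above every PBS adult, the exception being mouse P200_5.3_CTR_LPS. The log2 fold change was 1.43 ± 0.17 in control mice (adjusted p = 4.08e-09) and 1.38 ± 0.19 in ELS mice (adjusted p = 1.77e-07). LPS adults were still below most pups, whose group medians were 97.5 and 124 CPM.

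Srsf5 (ENSMUSG00000021134), an SR protein that binds exonic enhancers, ranged from 76.4 to 168 CPM (median 91.0) in P200-CTR-PBS and from 222 to 412 (median 300) in P200-CTR-LPS. In ELS mice it ranged from 84.1 to 182 CPM (median 144) after PBS, and the 5 LPS mice had 218, 261, 277, 325 and 343 CPM. No LPS mouse of either condition overlapped its PBS group. The log2 fold change was 1.51 ± 0.29 (adjusted p = 0.000111) in control and 1.11 ± 0.33 (adjusted p = 0.0155) in ELS mice.

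Srsf7 and Srsf3, SR proteins that also help to export mRNA, were picked for full values after those values were seen. Srsf7 ranged from 188 to 236 CPM (median 208) in P200-CTR-PBS and from 221 to 506 (median 402) in P200-CTR-LPS, where mouse P200_5.3_CTR_LPS was the lowest (0.90 ± 0.20). The ELS mice given LPS had 224, 332, 334, 360 and 469 CPM, each above the 141 to 222 (median 185) of P200-ELS-PBS (0.91 ± 0.23). Srsf3 ranged from 82.1 to 149 CPM (median 136) in P200-CTR-PBS and from 163 to 241 (median 184) in P200-CTR-LPS, and the ELS mice given LPS had 144, 182, 183, 196 and 205 CPM against 95.7 to 140 (median 108) after PBS. Both comparisons of Srsf3 were without overlap (0.65 ± 0.13 and 0.72 ± 0.15). Hnrnpl (ENSMUSG00000015165) rose from a median of 47.5 CPM (35.4 to 66.6) to 85.4 (72.9 to 135) in control mice, without overlap (0.93 ± 0.17, adjusted p = 4.39e-05). The ELS mice given LPS had 47.0, 64.8, 69.2, 82.0 and 97.5 CPM of Hnrnpl against 38.2 to 56.3 (median 49.2), and its change of 0.58 ± 0.19 (adjusted p = 0.0346) was lost in 6 of 11 fits that each left out a mouse of these groups.

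**Figure D3:**
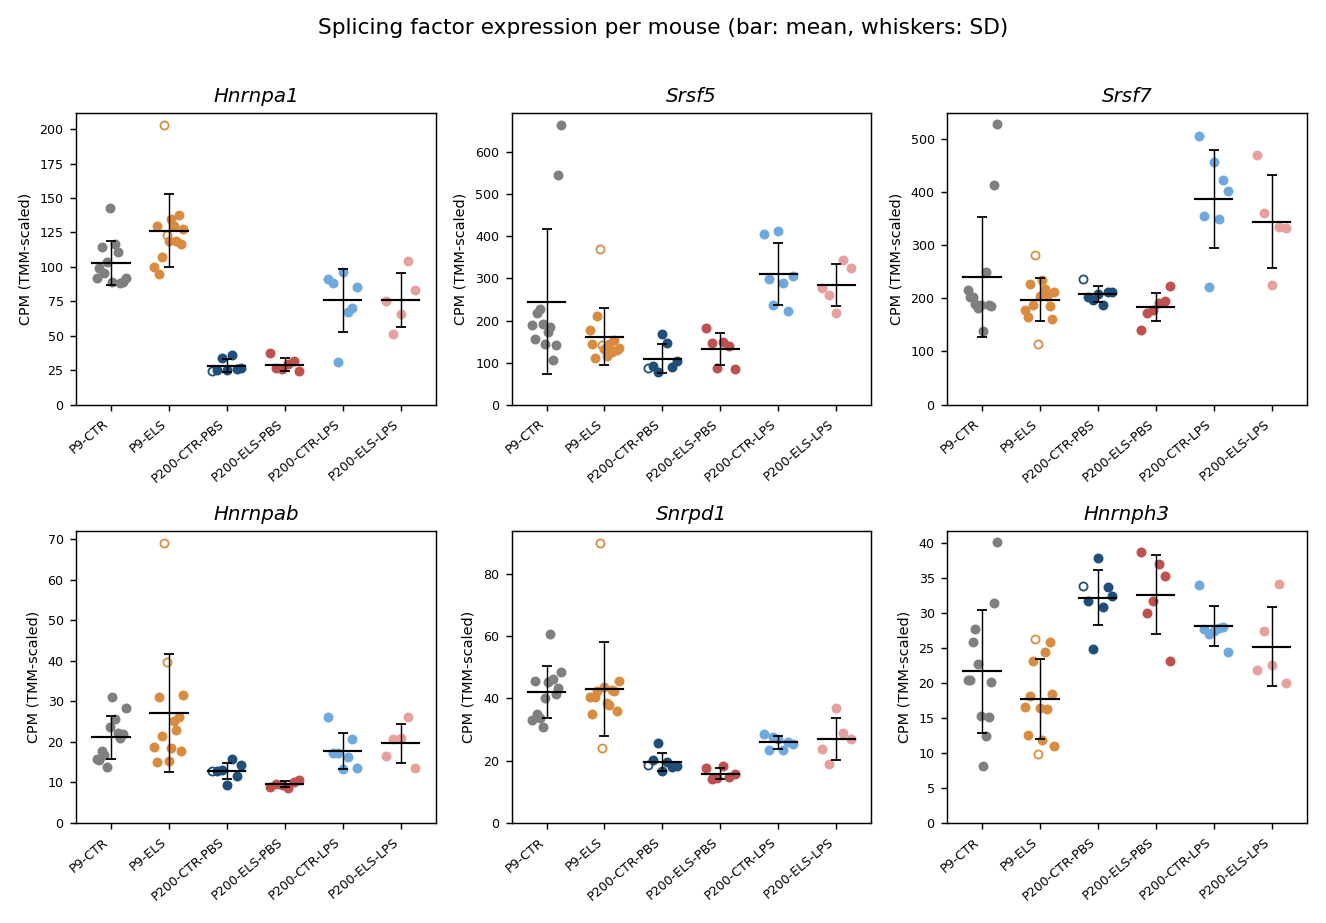
CPM (scaled by TMM factors) of 6 members in each of the 50 mice, by group; bars are means, whiskers SD, and open symbols mark P9_19.2_ELS, P9_19.3_ELS and P200_1.1_CTR_PBS, which had the fewest genes detected. Hnrnpa1 is at 24.2 to 37.3 CPM in PBS adults and at 30.7 to 104 in LPS adults, Srsf5 is above its PBS group in every LPS adult, and Hnrnph3 is higher in PBS adults than in most pups.

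**Figure D4:**
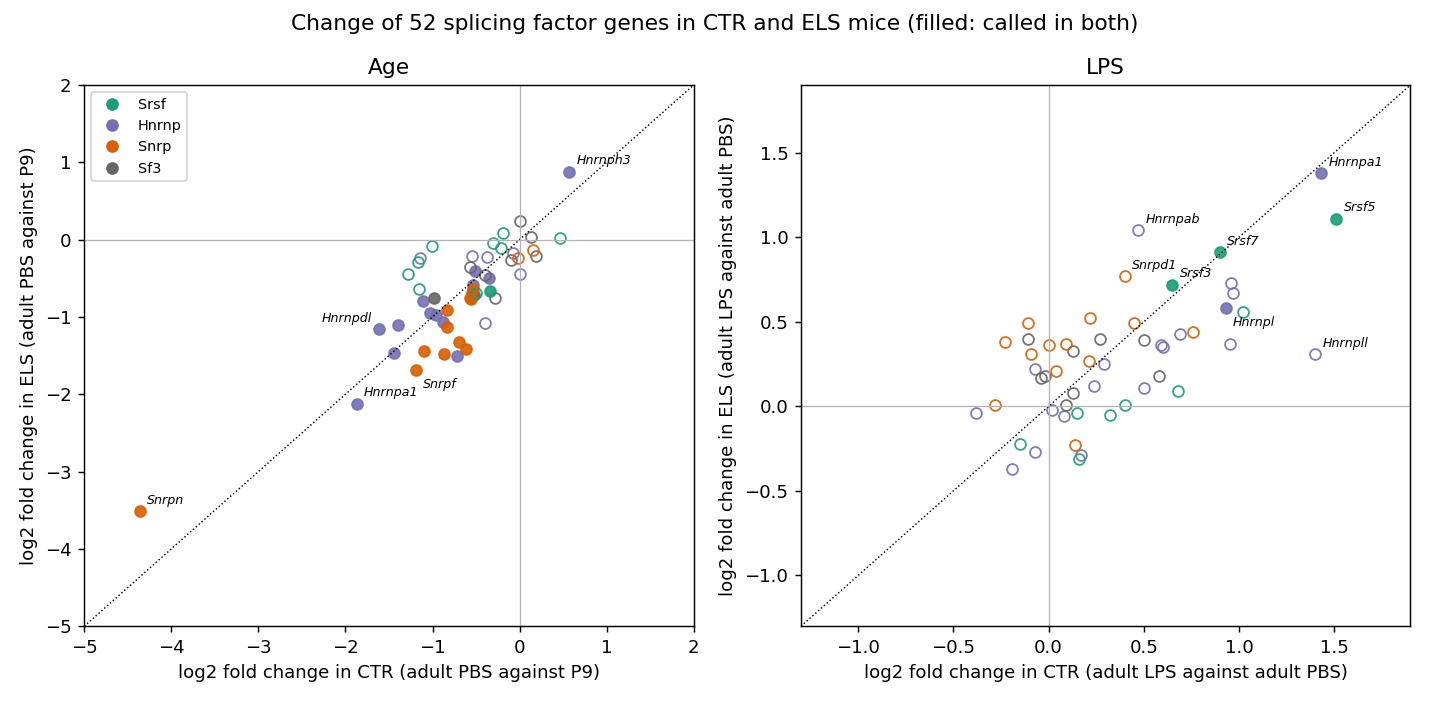
Log2 fold changes of 52 members (without Srsf12) in control mice (x axis) against ELS mice (y axis), for PBS adults against P9 (left) and LPS against PBS adults (right); colour gives the family, filled points were called in both conditions, and the dotted line marks equal change. In the age panel 47 of 52 points have the same sign in both conditions, and in the LPS panel 36 of 52 do.

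The promoters of 3 members named by a rule and called higher after LPS in both conditions are shown. They come from RefSeq, in a table of build GRCm38.p6 that matched 46 members by symbol, and each runs from 250 bases before to 50 bases after the annotated start, on the plus strand: chr15:103240147-103240446 for Hnrnpa1, chr7:28810640-28810939 for Hnrnpl and chr12:80945249-80945548 for Srsf5. Capitals mark 3 motifs searched on both strands: the box CCAAT, the Sp1 site GGGCGG, and the ETS factor site, written as CCGGAAG.
Hnrnpa1: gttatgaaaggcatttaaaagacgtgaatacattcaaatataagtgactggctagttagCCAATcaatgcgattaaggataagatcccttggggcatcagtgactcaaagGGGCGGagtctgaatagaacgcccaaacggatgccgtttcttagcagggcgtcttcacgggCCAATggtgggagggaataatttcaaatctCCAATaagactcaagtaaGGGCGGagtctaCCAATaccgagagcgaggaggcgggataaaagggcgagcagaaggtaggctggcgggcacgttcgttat
Hnrnpl: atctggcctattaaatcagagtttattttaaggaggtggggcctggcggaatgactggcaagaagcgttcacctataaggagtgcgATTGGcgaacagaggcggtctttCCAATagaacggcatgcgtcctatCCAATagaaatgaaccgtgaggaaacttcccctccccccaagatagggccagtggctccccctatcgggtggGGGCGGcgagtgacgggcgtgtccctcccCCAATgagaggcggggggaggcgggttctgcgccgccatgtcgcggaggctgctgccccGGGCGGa
Srsf5: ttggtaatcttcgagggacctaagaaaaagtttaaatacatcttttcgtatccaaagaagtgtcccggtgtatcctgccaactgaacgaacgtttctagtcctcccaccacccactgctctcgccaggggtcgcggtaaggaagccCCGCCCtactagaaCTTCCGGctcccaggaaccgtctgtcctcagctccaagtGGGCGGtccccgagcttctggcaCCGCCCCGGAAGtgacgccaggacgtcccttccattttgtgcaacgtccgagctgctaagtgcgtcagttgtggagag
Hnrnpa1 and Hnrnpl each held 4 copies of CCAAT and 2 of GGGCGG, and Srsf5 held 3 of GGGCGG and 2 of CCGGAAG, of which 1 overlaps a GGGCGG match on the other strand. Of the 37 members with exactly 1 promoter in the table, 17 (45.9%) held CCAAT, 27 (73%) GGGCGG and 12 (32.4%) CCGGAAG. Over all 32851 promoters of the same length the shares were 37.4%, 35.7% and 8.86%. TGACGTCA was in 1 of the 37 and in 1.79% of all promoters and TATAAA in 5 and in 13.6%. These matches are a description of letters in a window.

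The other calls after LPS passed the test in 1 condition. In control mice they were Srsf6, Srsf12, Hnrnpa2b1, Hnrnpa3, Hnrnpdl, Hnrnph1, Hnrnph2, Hnrnpll and Sf3a1, and in ELS mice Hnrnpab, Snrpb, Snrpd1 and Snrpd3. Srsf6 went from a median of 51.32 CPM (26.7 to 63.3) to 106 (38.8 to 136) in control mice, where mouse P200_5.3_CTR_LPS was again the lowest (1.02 ± 0.22, adjusted p = 0.000494). After LPS the ELS mice had 82.0, 104, 117, 142 and 212 CPM of Srsf6 against a PBS median of 89.1 (0.56 ± 0.25, adjusted p = 0.136). Changes in control mice were 0.97 for Hnrnpdl, 0.96 for Hnrnph1, 0.69 for Hnrnpa3, 0.60 for Hnrnph2, 0.59 for Hnrnpa2b1, 1.40 for Hnrnpll and 0.58 for Sf3a1, and in ELS mice these genes had 0.67, 0.73, 0.43, 0.35, 0.36, 0.31 and 0.18. The call for Sf3a1 was lost in 7 of 14 fits that each left out a mouse, and that for Hnrnpll in 2. With nest as a block, with counts summed per nest, and in the fit to the compared groups, the Hnrnph1 call was lost. Counts summed per nest also lost the calls for Hnrnpa2b1 and Hnrnpll. The smallest adjusted p of the interaction among the 9 members called in control mice alone was 0.856, so none was shown to respond differently.

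Hnrnpab rose in ELS mice, where the 5 LPS mice had 13.7, 16.6, 20.7, 21.1 and 26.1 CPM, each above the 8.72 to 10.7 (median 9.55) of P200-ELS-PBS (1.04 ± 0.27, adjusted p = 0.00491). In control mice it had medians of 12.9 CPM (9.43 to 15.8) after PBS and 17.23 (13.3 to 26.3) after LPS, which overlapped (0.47 ± 0.24, adjusted p = 0.189). Snrpd1, an Sm ring gene also picked after its values were seen, had 18.8, 23.9, 26.8, 28.7 and 37.0 CPM in P200-ELS-LPS against 14.1 to 18.29 (median 15.3) in P200-ELS-PBS (0.77 ± 0.19, adjusted p = 0.00401). Snrpb had 155, 165, 166, 179 and 287.0 CPM in P200-ELS-LPS against 136 to 155 (median 149) in P200-ELS-PBS (0.37 ± 0.12, adjusted p = 0.0277). The highest of these was mouse P200_11.2_ELS_LPS, and without it the change was 0.17 with an adjusted p of 0.334. The Snrpb call was lost as well without mouse P200_17.2_ELS_PBS, with nest as a block, and in 3 other settings, and the call for Snrpd3 (0.52 ± 0.14) was lost without mouse P200_11.2_ELS_LPS. Interaction values of these 4 members had adjusted p-values of at least 0.886.

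By family, LPS called 5 Srsf, 8 Hnrnp, 0 Snrp and 1 Sf3 genes higher in control mice, with median log2 fold changes of 0.65, 0.49, 0.09 and 0.13. In ELS mice the counts were 3, 3, 3 and 0, with medians of 0.01, 0.28, 0.37 and 0.18. Without the 3 libraries with the fewest genes the counts were 5, 11, 2 and 2 in control and 3, 5, 6 and 1 in ELS mice. Beside them stood 1806 and 1922 of all genes, and the Snrp medians were 0.19 and 0.37. At an unadjusted p under 0.05, 16 members were higher in ELS mice and 18 in control mice, beside 2121 and 2411 of all 16696 genes. The remaining 35 members passed the LPS test in neither condition, among them the abundant Hnrnpk (0.29 ± 0.12 in control and 0.25 ± 0.13 in ELS mice) and Sf3b1 (0.27 ± 0.15 and 0.40 ± 0.16). Hnrnpk went from 963 ± 66.8 to 1174 ± 124 CPM in control mice, and without the 3 libraries with the fewest genes both it and Sf3b1 were called higher in both conditions.

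Control and ELS mice share no animals, so their changes can be set side by side. Across the 52 members other than Srsf12 the log2 fold changes with age had Pearson r = 0.82 and Spearman rho = 0.697 between conditions, with 47 (90.4%) of the same sign. Over the 6474 genes with a mean log2 CPM of at least 4 the values were 0.902, 0.851 and 82.6%. For LPS the members had r = 0.65, rho = 0.561 and 36 (69.2%) of the same sign, beside 0.863, 0.690 and 72.1% over the same genes. These are descriptions across genes, which are not independent replicates. The 6474 genes include members, and no limit on level was set for the 52 members, so these sets are not alike.

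The tests of the interactions found no member whose change with age or LPS differed between conditions. For age, 0 of 53 members were called higher (0.0299% of all genes) and 0 lower (0% of all genes), with 3 and 7 at an unadjusted p under 0.05 (817 and 895 of all 16696 genes). For LPS, 0 members were called in either direction (0% of all genes each), with 1 higher and 0 lower at an unadjusted p under 0.05 (490 of all genes in each direction). The likelihood-ratio test and DESeq2 also called 0 members in both. Of all genes, the likelihood-ratio test called 22 higher and 7 lower for age and 33 higher and 33 lower for LPS, and DESeq2 called 12 and 8 for age and 6 and 5 for LPS. The age values with the smallest unadjusted p were 0.84 ± 0.28 for Srsf6 (p = 0.00379, adjusted p = 0.283), 0.93 ± 0.32 for Srsf4 (p = 0.00517, adjusted p = 0.312) and −0.80 ± 0.29 for Snrpe (p = 0.00749, adjusted p = 0.319). Family medians of the age interaction were 0.27 for Srsf and −0.29 for Snrp, and 0.34 and −0.11 without the 3 libraries with the fewest genes, where the Snrpe value was −0.34 ± 0.18. Without mice P9_58.1_CTR and P9_58.2_CTR the Srsf median was 0.08. For LPS the smallest unadjusted p-values belonged to Snrpg (0.60 ± 0.29, p = 0.0432), Srsf12 and Snrpe (0.62), with adjusted p-values of at least 0.818, and without those libraries Snrpg had 0.29 and Snrpe 0.33.

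Direct comparisons of ELS with control mice asked whether the stress left a difference at P9, in PBS adults or in LPS adults. With edgeR's quasi-likelihood test, 0 of 53 members were called higher and 0 lower at P9, against 0% of all genes in both directions, with 3 and 1 at an unadjusted p under 0.05 (554 and 360 of all 16696 genes). In PBS adults 0 members were called higher, against 0.126% of all genes, and 0 lower, against 0.0419%, with 2 and 3 at an unadjusted p under 0.05 (919 and 703 of all genes). In LPS adults 0 were called in either direction, against 0% of all genes each, with 1 and 1 at an unadjusted p under 0.05 (353 and 445 of all genes). The likelihood-ratio test and DESeq2 each called 1 member higher in PBS adults, Srsf6, where they called 143 and 112 genes higher in all, and no member in the others.

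Srsf6 came nearest to a call. It ranged from 26.7 to 63.3 CPM (median 51.32) in P200-CTR-PBS and from 58.3 to 119 (median 89.1) in P200-ELS-PBS. Among the ELS mice 5 of 6 were above all 7 control mice, and mouse P200_17.2_ELS_PBS lay within their range. The difference was 0.85 ± 0.23 on the log2 scale (unadjusted p = 0.000467, adjusted p = 0.0846). It passed the threshold in the fit without mouse P200_17.2_ELS_PBS (adjusted p = 0.0473). That mouse was the lowest of its group, so leaving it out widens the difference by construction and adds no support. After LPS the medians were 106 CPM in control and 117 in ELS mice. Srsf4 had a median of 12.7 CPM (9.50 to 16.2) in P200-CTR-PBS and 23.0 (14.4 to 33.5) in P200-ELS-PBS (0.87 ± 0.26, unadjusted p = 0.00157, adjusted p = 0.135). At P9 neither gene differed by as much, with medians of 123 and 126 CPM for Srsf6 and 24.6 and 24.0 for Srsf4.

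Snrpe went the other way, with a median of 23.5 CPM (17.32 to 57.4) in P200-CTR-PBS and 17.5 (15 to 21.2) in P200-ELS-PBS (−0.62 ± 0.24, unadjusted p = 0.0113, adjusted p = 0.290). Without the 3 libraries with the fewest genes the difference was −0.33 ± 0.15. Its highest control value came from mouse P200_1.1_CTR_PBS, which also had the highest Snrpg (44.6 CPM against 15.0 to 18.8 in the other 6) and Snrpf of its group. At P9 the smallest unadjusted p-values belonged to Srsf5 (−0.61 ± 0.22, p = 0.00686), Hnrnpa1 (0.30 ± 0.13, p = 0.0211) and Srsf10 (0.26 ± 0.12, p = 0.0313), with adjusted p-values of at least 0.875. Without mice P9_58.1_CTR and P9_58.2_CTR the Srsf5 difference was −0.10 ± 0.17. In LPS adults they belonged to Srsf12, Snrpb (0.23 ± 0.11, p = 0.0435) and Hnrnpl, with adjusted p-values of at least 0.862.

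**Figure D5:**
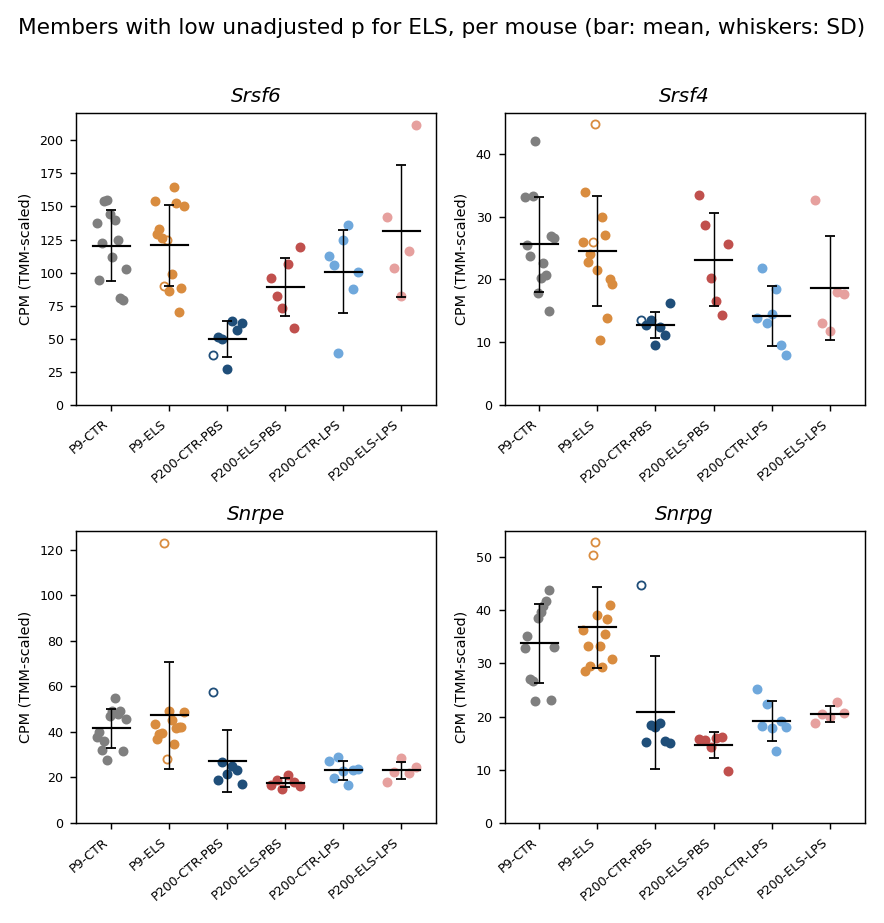
CPM (scaled by TMM factors) of Srsf6, Srsf4, Snrpe and Snrpg in each of the 50 mice, by group; bars are means, whiskers SD, and open symbols mark P9_19.2_ELS, P9_19.3_ELS and P200_1.1_CTR_PBS. In PBS adults 5 of 6 ELS mice lie above all 7 control mice for Srsf6, and the open symbol of mouse P200_1.1_CTR_PBS stands alone at 57.4 CPM of Snrpe and 44.6 CPM of Snrpg.

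Srsf12, which represses splicing in competition with other SR proteins, was near absent in adults. It had 369 counts in all, with at least 1 in each of 12 mice, in P9-CTR (1.26 CPM on average) and 249 counts in 8 of 13 mice in P9-ELS (0.836 CPM). P200-CTR-PBS had 0 counts and P200-ELS-PBS had 1. Against a limit of 3 counts over the P200-CTR-PBS group, or 0.02 CPM, Srsf12 was at least 62.8-fold higher in P9-CTR. In P200-CTR-LPS it had 24 counts, all from mice P200_8.2_CTR_LPS (7 counts) and P200_8.3_CTR_LPS (17 counts) of 7, which is at least 8.72-fold higher than the same limit, and in P200-ELS-LPS it had 0. Its LPS call in control mice rests on these mice, whose titles carry the same nest number, 8. The call was lost in 4 of 14 fits that each left out a mouse, with nest as a block, and in the fit to the compared groups. Placing Srsf12 at its bound left the medians of the Srsf family and of all members for age and for LPS in control mice as given. Limits of this kind cover counting error only.

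The rest of the splicing machinery was followed through 10 lists of 173 genes, of which 168 were tested. With age 63 fell and 11 rose in control mice (median −0.33), where 26.6% and 17.4% of all genes did, and 49 fell and 10 rose in ELS mice (median −0.22), where 25.0% and 17.15% of all genes did. The list of other splicing regulators had 24 of 49 lower in control and 15 in ELS mice, the SR-related proteins 8 and 4 of 17, and the SMN complex and Sm assembly factors 3 and 3 of 15. Ddx39a, a helicase of splicing and mRNA export, fell from 125 ± 20.6 to 41.2 ± 14.9 CPM in control mice (−1.60 ± 0.17) and by 2.03 on the log2 scale in ELS mice. The helicase Ddx46 (−1.61 in control and −1.26 in ELS mice) and Lsm4 (−1.58 and −1.64) and Lsm2 (−1.24 and −1.36), of the ring on U6 RNA, fell in both conditions, and the hnRNP-like Raly passed the test in control mice (−1.90). Mbnl2, a regulator of exon choice during maturation, rose from 82.8 ± 7.35 to 200 ± 27.5 CPM in control mice (1.28 ± 0.11) and by 1.18 in ELS mice. Snrnp48 (0.79 and 0.59) and, in 1 condition each, Lsm10 (0.96 in control mice) and Xab2 (0.66 in ELS mice) rose as well.

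After LPS 20 of the 168 genes rose and 6 fell in control mice (median 0.15), beside 8.73% and 6.20% of all genes, and 18 rose and 4 fell in ELS mice (median 0.08), beside 7.40% and 4.94%. The helicase Ddx5 rose from 862 ± 172 to 1855 ± 242 CPM in control mice (1.11 ± 0.15) and from 871 ± 145 to 1733 ± 432 in ELS mice (0.99 ± 0.17). Cwc25 (0.60 and 0.91) rose in both conditions, and Rbm25 (0.93 in control and 0.54 in ELS mice) and Lsm4 (0.58 and 0.82) passed the test in control and in ELS mice, respectively. Tia1, which favours weak 5' splice sites and binds AU-rich mRNA, fell in both conditions, from 47.6 ± 6.20 to 24.5 ± 4.42 CPM in control mice (−0.96 ± 0.19) and from 47.7 ± 8.79 to 22.3 ± 1.98 in ELS mice (−1.10 ± 0.21). Celf2 fell in both (−0.61 and −0.58), and Lsm10 fell in control mice (−0.92). The exon junction complex had 4 of 8 genes higher in ELS mice and 1 in control mice.

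In the direct comparisons of ELS with control mice and in both interactions, 0 of the 168 genes were called in either direction, with 18 at an unadjusted p under 0.05 at P9, 13 in PBS adults, 3 in LPS adults, 22 for the age interaction and 10 for the LPS interaction, beside the counts over all genes given above for each. Raly, singled out after its values were seen, had a median of 13.0 CPM (4.82 to 25.5) in P200-CTR-PBS and 42.0 (19.0 to 66.6) in P200-ELS-PBS (1.76 ± 0.43, adjusted p = 0.0571).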

How the data were processed

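RNA was sequenced from sorted hippocampal microglia of 50 mice in 6 groups. The deposited files hold raw read counts per gene, which the authors made from uniquely mapped reads within exons; their processing notes name bcl2fastq 2.20, cutadapt 2.10, STAR and HTSeq 0.11.0 on GRCm39, and state neither annotation release nor strand setting. The filter kept 16696 of 53700 genes, each reaching 1 CPM in 3 mice or more. Counts were scaled by TMM and tested with the quasi-likelihood test of edgeR 4.0.16 in R 4.3.3 (limma 3.58.1), with 1 mean per group and Benjamini-Hochberg adjustment over all genes tested in each comparison. A call is an adjusted p under 0.05, and calls over 2-fold are counted beside. Comparisons were adults against P9 and LPS against PBS within each condition, ELS against control within each age and treatment, and the 2 interactions with ELS. Standard errors belong to log2 fold changes, and SD to CPM across mice.

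Library totals had group medians from 18474916 to 22304746 counts. Lengths came from GENCODE vM39, using the Ensembl canonical transcript (52610 of 53700 identifiers found). Sample titles carry a number with a decimal; its whole part was taken as the nest, a meaning that the labels do not define. No 2 libraries of a group were duplicates (smallest mean chi-square between libraries of a group 15.0 per gene).

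Members and lists were chosen with earlier results of these data known. Members were named by rule: for age and LPS, the 3 highest and 3 lowest changes among called members with a mean log2 CPM of at least 4, the highest CPM per kb of each family, and the 3 smallest unadjusted p-values of each comparison or interaction testing ELS. Other named genes were picked after their values were seen. Alternatives were the likelihood-ratio test, DESeq2 1.42.0 with its Wald test and with its size factors in edgeR, other filters, fits to the compared groups alone, counts summed per nest, nest as a block, and each mouse left out. Leaving out the 3 libraries with the fewest genes, or mice P9_58.1_CTR and P9_58.2_CTR, was added after seeing the data. Limits for Srsf12 used 3 counts over a group.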

Additional observations from a re-analysis of the deposited data

Results flagged for a closer look

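Of 66 sets of values of named members in the 4 adult groups, screened for a mouse far from the rest of its group, 10 were flagged by a test that picks about 5 in 100 groups by chance. In P200-CTR-PBS, mouse P200_1.1_CTR_PBS was highest for Snrpe (57.4 CPM, next 27.0), Snrpg (44.6, next 18.8) and Snrpf (17.8, next 13.9). In P200-ELS-PBS, mouse P200_20.2_ELS_PBS was lowest for Snrpg (9.78 CPM, next 14.3) and mouse P200_4.1_ELS_PBS was lowest for Sf3b1 (232, next 272) and held the group's only Srsf12 count (0.0356 CPM, with 0 in the others). After LPS, control mice stood out for Hnrnpa3 (mouse P200_8.2_CTR_LPS, 85.6 CPM, next 55.14), Hnrnph3 (mouse P200_1.2_CTR_LPS, 34.0, next 28.0) and Hnrnpl (mouse P200_5.3_CTR_LPS, 135, next 97.4), and ELS mouse P200_11.2_ELS_LPS stood out for Snrpb (287.0, next 179).

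Mouse P200_1.1_CTR_PBS, which held 3 of these values, had 12854 genes with a count, the fewest among adults. Mouse P200_5.3_CTR_LPS had the lowest Il1b after LPS in its group (66.4 CPM) and the lowest Hnrnpa1 (30.7 CPM). The P9 groups, of 12 and 13 mice, were too large for this test, and there mouse P9_19.2_ELS stood highest for Snrpe (123 CPM, next 49.4), Hnrnpab (69.0, next 39.6), Srsf10 (309.8, next 169) and Sf3b1 (896, next 516.5). Whether handling of the samples or biology set these mice apart was not tested.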

How the results depend on the processing

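With each mouse left out in turn, members lower with age numbered 33 to 36 in control and 30 to 35 in ELS mice, and members higher after LPS 11 to 15 and 7 to 10. Over the other settings these counts were 30 to 38, 28 to 36, 12 to 20 and 7 to 15. Calls over all genes in those settings were 2956 to 5280, 2850 to 4798, 1210 to 1806 and 1077 to 1922, of 12564 to 36192 genes tested, depending on the filter. With nest as a block, 14 and 11 members were higher after LPS, beside 1259 and 1263 of all 16696 genes. By the interaction 0 members and 0 of all genes differed in that fit. It lost the calls for Hnrnph1 and Srsf12 in control mice and Snrpb in ELS mice. Counts summed per nest lost the age calls of Hnrnpa0, Hnrnpl, Hnrnpll, Snrpe, Snrpert and Snrpg in control mice and of Hnrnpd, Hnrnph1, Hnrnpul2, Sf3b3 and Srsf1 in ELS mice, and the LPS calls of Hnrnpa2b1, Hnrnph1 and Hnrnpll in control mice and of Snrpb in ELS mice. Without the 3 libraries with the fewest genes, 15 members were higher and 1 lower (Hnrnpr, −0.27, adjusted p = 0.0430) after LPS in ELS mice, while calls over all genes went from 1235 to 1922 higher and 824 to 1610 lower; the cause was not tested. In PBS adults, members higher in ELS mice numbered 1 with the likelihood-ratio test, 1 with DESeq2, and 0 to 1 with a mouse left out (Srsf6 without mouse P200_17.2_ELS_PBS); the cause was not tested. The log2 fold changes by which members were named kept their direction in every setting run for them. Calls lost in most single-mouse fits were Hnrnpl with age in control mice (14 of 19), Sf3b3 with age in ELS mice (14 of 19) and Hnrnpl after LPS in ELS mice (6 of 11). Low counts limit Srsf12 and Snrpn in adults.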
